A study of Solanum lycopersicum with 4 samples.

Results

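The xyloglucan and mannan remodelling genes XTH1, XTH3, XTH16, tXET-B2 and Man4 were examined in tomato fruit pericarp. They were chosen as the probe sets whose symbol or synonym, in the array's annotation or the RefSeq gene table, is one of these names. The rule itself uses names and no threshold on a value, but the names were picked with earlier results of these data known. The rule found 7 probe sets for 5 genes, out of 10101 probe sets analysed and 802 genes that carry a name. XTH16 has 3 probe sets and each of the other genes has 1. Wild type (WT) fruits of the variety Moneymaker were compared with fruits of AtJUB1-OX plants of the same variety, which carry the construct given in the labels as 35:AtJUB1-GFP. It places the Arabidopsis NAC transcription factor JUNGBRUNNEN1, fused to GFP, under the 35S promoter, which is active in most plant tissues, and the fruits came from 1 transgenic line. Each genotype was sampled at mature green (MG) and at breaker+7 (B+7), 7 days after the first colour change, with 1 array per genotype and stage. The 4 arrays therefore hold no replicates, so differences are given without a test. How many fruits stand behind an array is not given in the sources used here.

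Xyloglucan is the main hemicellulose that coats cellulose in the tomato cell wall. Xyloglucan endotransglucosylase/hydrolases (XTHs) cut its chains and rejoin the ends to other chains or to water, which loosens or rebuilds the wall during growth and ripening. Mannans are a further group of hemicelluloses, and endo-β-mannanases of the Man family cut or transfer their chains. In tomato, some XTH genes are used in expanding organs and others in ripening fruit.

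The values are log2 expression as the authors deposited them, so that a difference of 1 is 2-fold and the 1.5-fold cut-off of the study is a difference of 0.58. The medians of the arrays lay between 9.69 and 9.74. The array carries 63 probe sets for reporter genes. Leaving out 2 of them, whose signal with the transgene was 2-fold that of WT or more at MG and at B+7, the other 61 serve here as a level of background, with a median of 3.48 and a 95th percentile of 5.43. All 7 ripening markers examined were at least 1.5-fold higher at B+7 than at MG in both genotypes, and all 5 green tissue markers were lower, while no seed storage gene is named in the tables used here, so seed RNA was not checked. At MG the ripening markers themselves differed between genotypes, from -5.29 (E8) to 2.33 (PG2, whose WT signal of 3.98 lay below that background percentile). All 5 green tissue markers were lower in AtJUB1-OX at MG, from -1.80 (CAB5) to -0.61 (PsbQ). The signal of 3' minus that of 5' control probe sets rises as RNA degrades. At MG it was larger in AtJUB1-OX for ubiquitin (0.26), actin (0.18), GAPDH (0.13) and GlutTrans (0.04) and smaller for PhyB2 (-0.50). At B+7 it was larger in AtJUB1-OX for PhyB2 (0.40) and GAPDH (0.01) and smaller for GlutTrans (-0.13), actin (-0.097) and ubiquitin (-0.03). The 25S and 17S ribosomal RNA controls at B+7 were higher in AtJUB1-OX by 1.20 and 0.48. The part of these array differences in the results was not tested. As a yardstick, probe sets of the same gene differed with a pooled SD of 0.25 for the genotype difference at either stage. It rests on 83 genes and 190 probe sets. For the difference between stages the SD of the same probe sets was 0.61 in WT and 0.75 in AtJUB1-OX. Where the signal lay above the median, the SD of the genotype difference was 0.16 at MG and 0.098 at B+7. This yardstick leaves out the spread between fruits. The probe sets of a gene are read on the same arrays, so variation between arrays that they share is left out too. In a bulk sample, fewer cells of a type and less RNA per cell cannot be told apart.

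**Figure D1:**
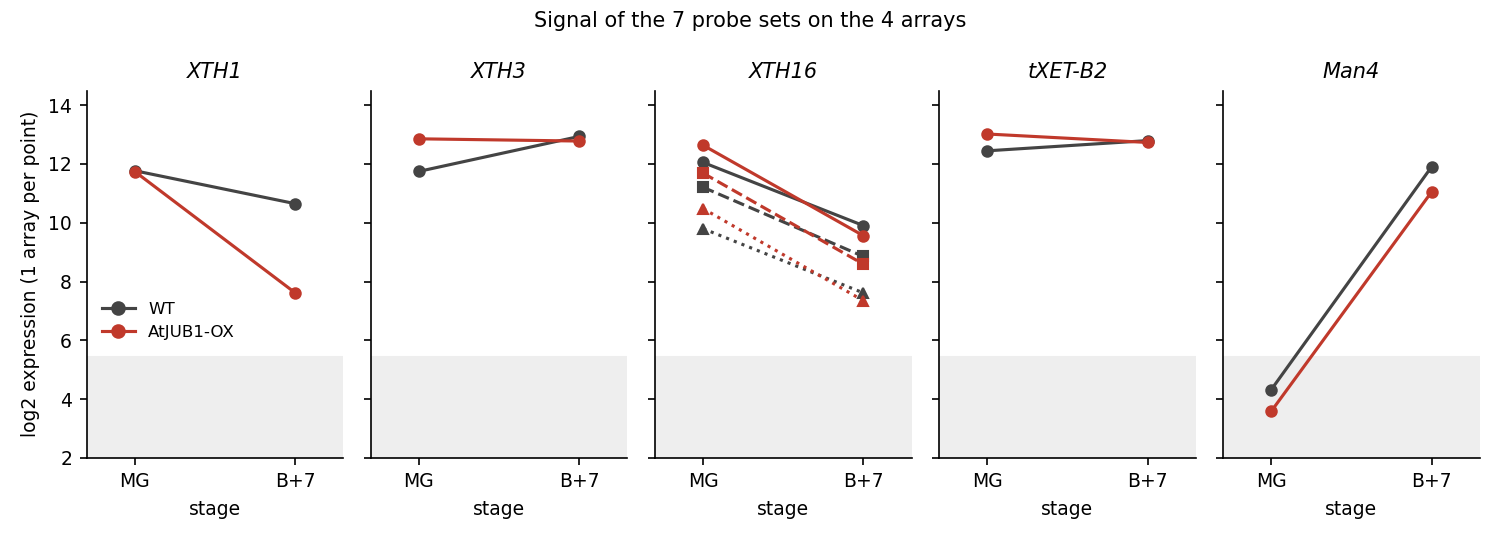
Log2 expression (y axis) of each probe set at MG and B+7 (x axis) in WT (grey) and AtJUB1-OX (red), 1 array per point, with the 3 probe sets of XTH16 drawn as solid, dashed and dotted lines. The shaded band ends at 5.43, the 95th percentile of 61 reporter probe sets. XTH1 at B+7 in AtJUB1-OX (7.62) lies far from the other 3 arrays, and Man4 leaves the band only at B+7.

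XTH1 showed the widest separation of the genotypes among the 5 genes. Known also as ext, it belongs to the XTHs first described from growing tomato tissue. Its probe set gave 11.77 in WT and 11.74 in AtJUB1-OX at MG, and 10.65 in WT and 7.62 in AtJUB1-OX at B+7. The B+7 array of AtJUB1-OX stood below the other 3, and the MG arrays differed by less than the yardstick SD. The genotype difference was thus -0.03 at MG and -3.03 at B+7, an 8.19-fold lower signal and the seventh lowest difference of all 10101 probe sets at that stage. From MG to B+7 the XTH1 signal was 2.18-fold lower in WT (-1.12) and 17.5-fold lower in AtJUB1-OX (-4.13). On the B+7 arrays XTH1 stood at percentile 63.6 of the probe sets in WT and at percentile 27.5 in AtJUB1-OX.

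XTH3 differed between genotypes at the other stage. Its probe set gave 11.75 in WT and 12.86 in AtJUB1-OX at MG, and 12.94 in WT and 12.78 in AtJUB1-OX at B+7. WT at MG was the low array, and the remaining 3 lay within 0.16 of each other and at least 1.03 above it. At MG the XTH3 signal was thus 2.16-fold higher with the transgene (1.11), and at B+7 it differed by -0.16. The same arrays gave a 2.28-fold higher signal at B+7 than at MG in WT (1.19) and a difference of -0.08 in AtJUB1-OX. Since WT at MG enters both comparisons, these are not separate observations of XTH3. The XTH3 signal of AtJUB1-OX at MG (12.86) lay near that of WT at B+7 (12.94).

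XTH16 was lower at B+7 than at MG in both genotypes. The brightest of its 3 probe sets, whose name carries the suffix a, gave 12.05 in WT and 12.64 in AtJUB1-OX at MG, and 9.90 in WT and 9.56 in AtJUB1-OX at B+7. Both MG arrays lay above both B+7 arrays, with AtJUB1-OX the higher at MG and the lower at B+7. The difference between stages was -2.15 in WT, 4.44-fold, and -3.08 in AtJUB1-OX, 8.45-fold. Its dimmer probe sets gave -2.35 and -2.19 in WT and, in the same order, -3.10 and -3.14 in AtJUB1-OX, so that all 3 showed the larger change in AtJUB1-OX. For the genotype difference at MG the 3 probe sets of XTH16 ranged from 0.48 to 0.68, on both sides of the 1.5-fold cut-off, with 0.59 for the brightest. At B+7 they ranged from -0.34 to -0.26. The 3 probe sets were read on the same arrays and are not replicates of the fruit.

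tXET-B2, a xyloglucan endotransglycosylase gene cloned from tomato fruit, varied least. Its probe set gave 12.45 in WT and 13.02 in AtJUB1-OX at MG, and 12.79 in WT and 12.73 in AtJUB1-OX at B+7. As for XTH3, WT at MG was the lowest array, but the whole range over the 4 arrays was 0.57 and no step between neighbouring arrays exceeded 0.28. The genotype difference of 0.57 at MG, 1.49-fold, fell just short of the cut-off, and that at B+7 was -0.06. Between stages tXET-B2 differed by 0.35 in WT and -0.29 in AtJUB1-OX.

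Man4 had the largest measured difference between stages of the 5 genes. Its synonyms in the gene table include LeMAN4a and LeMAN4i, and in tomato the enzyme is known as the mannanase of ripening fruit. Its probe set gave 4.32 in WT and 3.59 in AtJUB1-OX at MG, and 11.91 in WT and 11.05 in AtJUB1-OX at B+7. Both MG values lay below 5.43, the 95th percentile of the reporter probe sets. The B+7 signal of Man4 stood above that percentile by 6.47 in WT and 5.62 in AtJUB1-OX. The measured differences between stages, 7.58 in WT and 7.47 in AtJUB1-OX, start from background values and are not exact sizes of a transcript change. With a floor at 7.34 they were 4.57 and 3.71. AtJUB1-OX was lower than WT by 0.85 at B+7, 1.81-fold. The MG difference of -0.74 lies among values no brighter than the reporter probe sets and says little of transcript level. The suffix s in the name of the Man4 probe set marks probes that can match more than 1 transcript, so related mannanase genes could add to the signal.

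At MG, XTH3 and XTH16 passed the cut-off as higher in AtJUB1-OX, 2 of the 5 genes against 6.67% of all probe sets, and Man4 passed it as lower (6.74% of all probe sets), from values below the background percentile. XTH16 fell below the cut-off after quantile normalization (0.57), and tXET-B2 passed it with arrays centred on their medians (0.61). At B+7 none of the 5 genes was higher, against 3.53% of all probe sets, and XTH1 and Man4 were lower, against 6.13%. The median difference of the 5 genes was 0.57 at MG and -0.34 at B+7, beside -0.05 and 0.00 over all probe sets. From MG to B+7 in WT, XTH3 and Man4 were higher (13.9% of all probe sets) and XTH1 and XTH16 lower (14.2%). In AtJUB1-OX, Man4 alone of the 5 was higher (19.1% of all probe sets), and XTH1 and XTH16 were again lower (16.8%). With 5 genes that were picked with earlier results known, these counts describe the genes and are not set against chance.

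**Figure D2:**
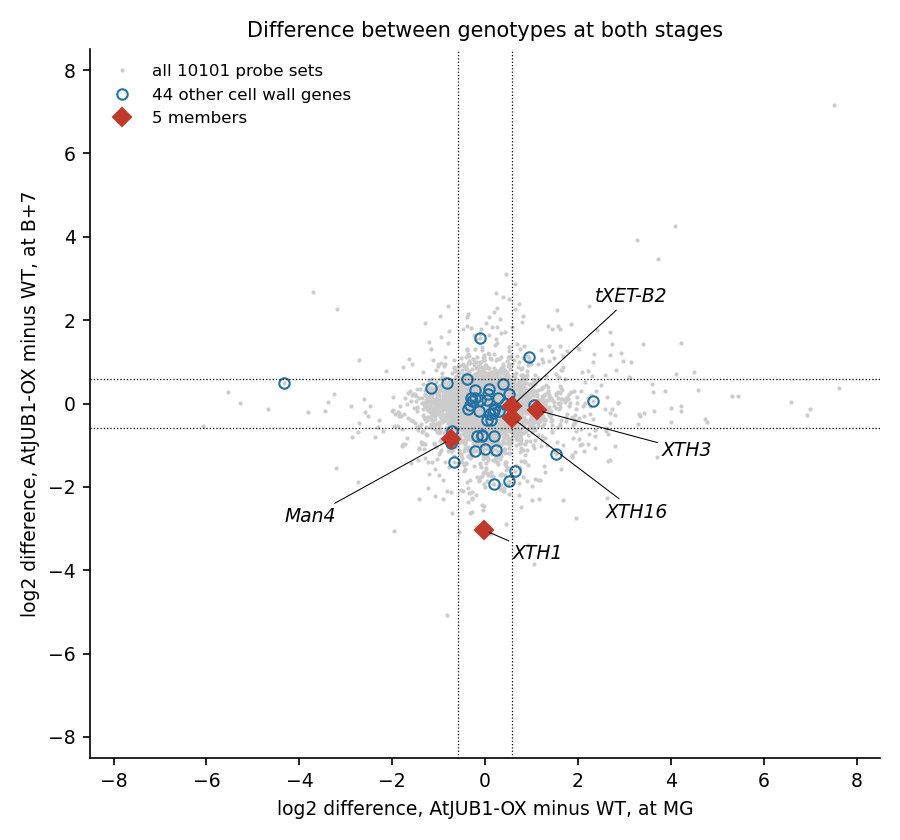
Log2 difference between AtJUB1-OX and WT at MG (x axis) and at B+7 (y axis) for the 5 genes (red diamonds), 44 other cell wall genes (blue circles) and all 10101 probe sets (grey dots), with dotted lines at the 1.5-fold cut-off. XTH1 lies at -0.03 and -3.03, while XTH3, XTH16 and tXET-B2 lie to the right with MG differences from 0.57 to 1.11.

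The genotype difference at B+7 minus that at MG was -3.01 for XTH1, -1.27 for XTH3, -0.93 for XTH16 and -0.64 for tXET-B2. For Man4 it is not given, since its MG values lay below the background percentile. These values could not be tested with 1 array per group.

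**Figure D3:**
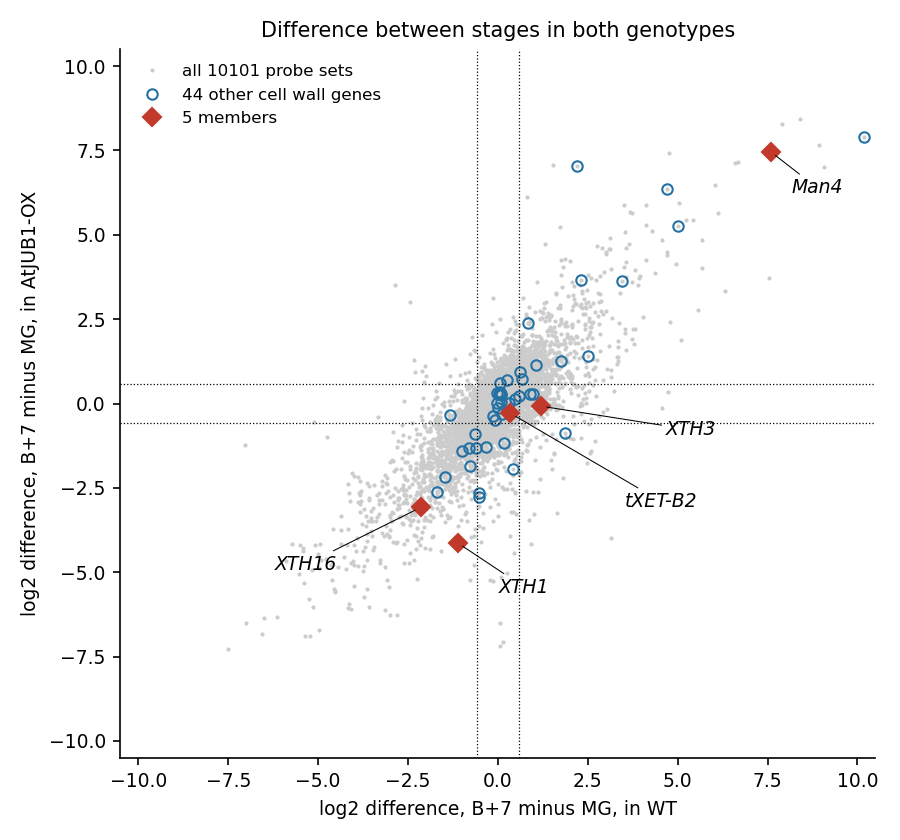
Log2 difference between B+7 and MG in WT (x axis) and in AtJUB1-OX (y axis), with the same symbols and cut-off lines as the plot of genotype differences. Man4 lies at the upper end in both genotypes (7.58 and 7.47, from MG signals below the background percentile of 5.43), XTH1 (-1.12 and -4.13) and XTH16 (-2.15 and -3.08) lie at the lower left, and XTH3 changed in WT only by the cut-off used (1.19 and -0.08).

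The array names 12 other genes listed as xyloglucan or mannan genes, of which 9 have a mean signal below the median of all probe sets. They were matched by symbol or synonym, without a check of their products, and the list includes XYL1 and XYL2. In AtJUB1-OX relative to WT, the MG arrays had 1 of these 12 higher and 2 lower, and the B+7 arrays 1 higher and 3 lower. Of all probe sets, 6.67% were higher and 6.74% lower at MG, and 3.53% and 6.13% at B+7. The 1 higher at B+7 was XYL1. XTH9, a further XTH gene, gave 9.94 in WT and 11.00 in AtJUB1-OX at MG and 12.45 and 12.40 at B+7. Like XTH3, it was higher in AtJUB1-OX at MG (1.06) and differed little at B+7 (-0.05). Its difference between stages was 2.51 in WT and 1.40 in AtJUB1-OX. XTH5, a bright XTH gene named after its values were seen, stayed between 12.65 and 13.60 on all 4 arrays and differed between genotypes by -0.28 at MG and 0.06 at B+7. XYL1, whose synonym LEXYL1 is that of a tomato xylosidase gene, gave 4.79 in WT and 4.68 in AtJUB1-OX at MG, both below the background percentile of 5.43, and 9.48 and 11.06 at B+7, where the genotypes differed by 1.58.

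The dimmer XTH genes were lower in AtJUB1-OX where they passed the cut-off, and all of these were named after their values were seen. XET2 differed by -0.72 at MG and -0.67 at B+7, XTH7 by -0.73 and -0.95, and XTH6 by -0.17 and -0.78. XTH7 was dim on every array, with signals from 4.39 to 5.48. Only its WT signal at MG lay above the background percentile of 5.43, so its differences say little of transcript level. BR1, listed by its symbol, had a B+7 signal 1.06 above its MG signal in WT and 1.14 above it in AtJUB1-OX. The mannanase genes MAN1 and MAN2 stayed between 3.40 and 4.32 on all arrays, below the 95th percentile of the reporter probe sets, so that Man4 was the only named mannanase gene with a signal above it. XET4 and ext1 also lay below it, and the product of ext1, matched by symbol alone, was not checked. XTH16 and tXET-B2 lie on the same chromosome with 297 genes between them in the RefSeq table of assembly SLM_r2.1, and none of the 17 genes is a direct neighbour of another there.

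**Figure D4:**
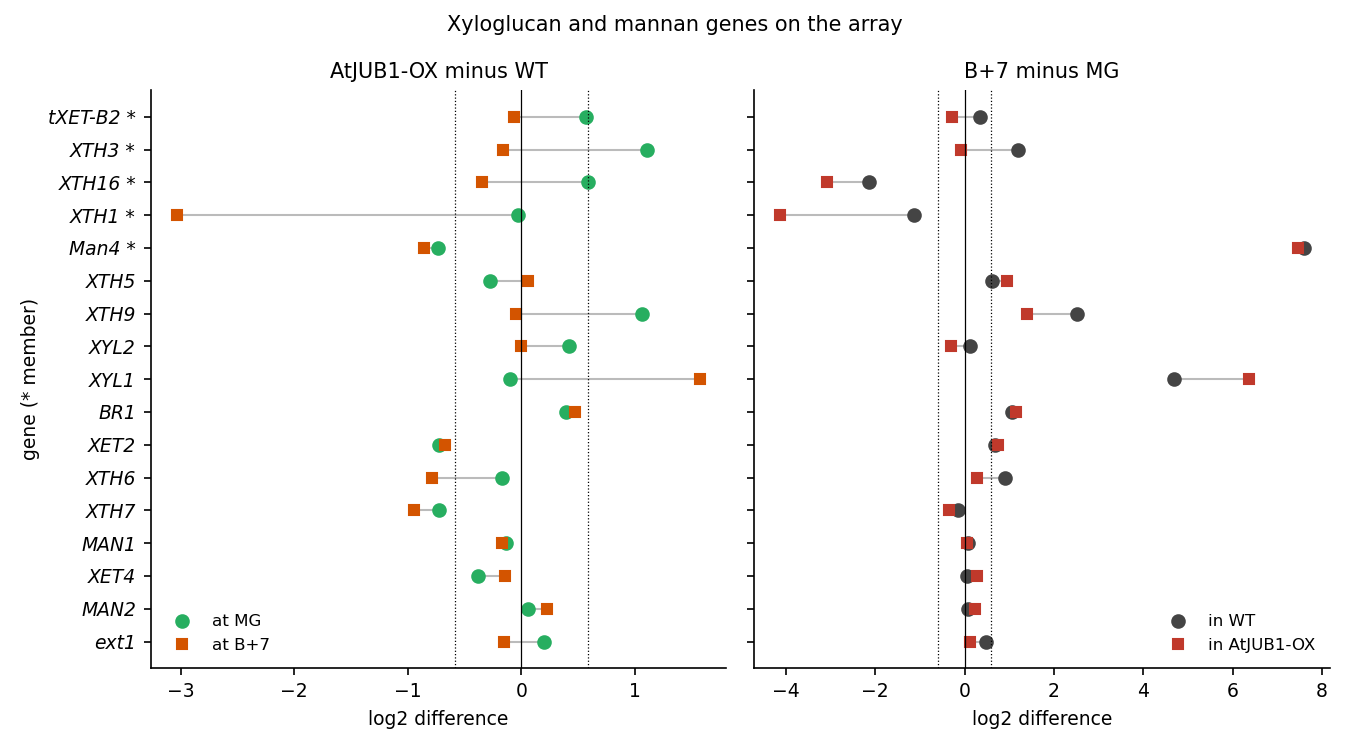
Log2 differences (x axes) of the 5 genes (asterisks) and the 12 other xyloglucan or mannan genes (y axis, each group in order of mean signal), between genotypes at MG and B+7 on the left and between stages in WT and AtJUB1-OX on the right, with dotted lines at the 1.5-fold cut-off. XTH3 and XTH9 stand apart at MG (1.11 and 1.06), XTH1 at B+7 (-3.03).

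Xyloglucan is handled together with pectins, cellulose and the expansins, which loosen the wall without cutting it. The 44 other cell wall genes matched include the 12 above. At MG the genotype difference was past the cut-off upward for 5 of the 44 and downward for 6, with a median of 0.04. Of all probe sets, 6.67% and 6.74% were past it. At B+7 the genotype difference was past the cut-off upward for 3 and downward for 14, with a median of -0.13. Of all probe sets, 3.53% and 6.13% were past it there. Many of these genes are dim. With the floor at 7.34 the counts were 3 and 3 at MG, and 5 genes were lower at B+7. The shares of all probe sets given here are without the floor, so the floored counts are not set against them. Above the median signal 4 of 14 genes were lower at B+7, against 3.62% of all probe sets above it. Of the 14 lower at B+7, 6 were expansins, 3 β-galactosidases, 3 XTH genes, 1 a pectin enzyme and 1 an endo-1,4-glucanase. The largest genotype differences among expansins, β-galactosidases and pectin enzymes were those of the expansin EXP1 (-4.34 at MG), the β-galactosidase TBG6 (-1.61 at B+7) and the polygalacturonase PG2 (2.33 at MG, from a WT signal of 3.98 below the background percentile). At B+7 the expansin exp9 (-1.92, to an AtJUB1-OX signal of 4.76, also below it) and the pectin methylesterase PMEU1 (-1.08) had the lowest values of their classes. XTH1 (-3.03) had a lower value at B+7 than any of the 44. Between stages, 15 of the 44 had a higher signal at B+7 and 8 a lower signal in WT. In AtJUB1-OX 14 were higher and 13 lower, and the floor, for which no share was taken, left 8 of the 13. Of all probe sets, 13.9% were higher and 14.2% lower in WT, and 19.1% and 16.8% in AtJUB1-OX.

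The profile of each gene over the 4 arrays, centred on its own mean, was compared with those of 621 other named genes by Euclidean distance. A distance of 0 means the same differences between arrays. Profiles were not scaled, so distances grow with the range of a gene, which was 8.32 for Man4 and 1.19 for XTH3. Distances of different members are therefore not compared. Nearest to XTH1 was AGAL, an α-galactosidase gene, at a distance of 0.38, with -0.20 between genotypes at MG and -2.97 at B+7. Its B+7 signal in AtJUB1-OX, 5.13, lay below the background percentile, so that the last difference and the distance are not exact. TGAS118, named for its induction by gibberellin (0.96), and LEJA1 (1.10) followed. For XTH3 the nearest were the ethylene receptor gene ETR5 (0.080), DEM (0.12) and the MAP kinase gene MPK3 (0.12). Each of them was low in WT at MG alone. DEM is dim, at 4.76 to 5.79, with its WT signal at MG below the background percentile. Nearest to XTH16 were CDKA1, a cyclin-dependent kinase gene (0.48), the tubulin gene TUB (0.52) and TMP (0.68), all with lower signals at B+7 in both genotypes. The B+7 signals of TMP, 3.44 in WT and 3.33 in AtJUB1-OX, lay below the background percentile, so its differences and distance are not exact. For Man4 the nearest were hdc (2.26), the ACC synthase gene ACS4 (2.34) and the endo-1,4-glucanase gene Cel2 (2.60). Like Man4, these genes had higher signals at B+7 in both genotypes. The distances of Man4 rest in part on its MG values below the background percentile. The WT signal of hdc at MG (4.19) lay below it too. Of the 5 genes themselves, XTH3 lay 0.65 from tXET-B2, and XTH1 lay 1.95 from XTH16. XTH3 and tXET-B2 have the smallest ranges, which by itself makes their distance small, so these pairs are not ranked. A profile of 4 values has few shapes, so that likeness over these arrays is a description.

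**Figure D5:**
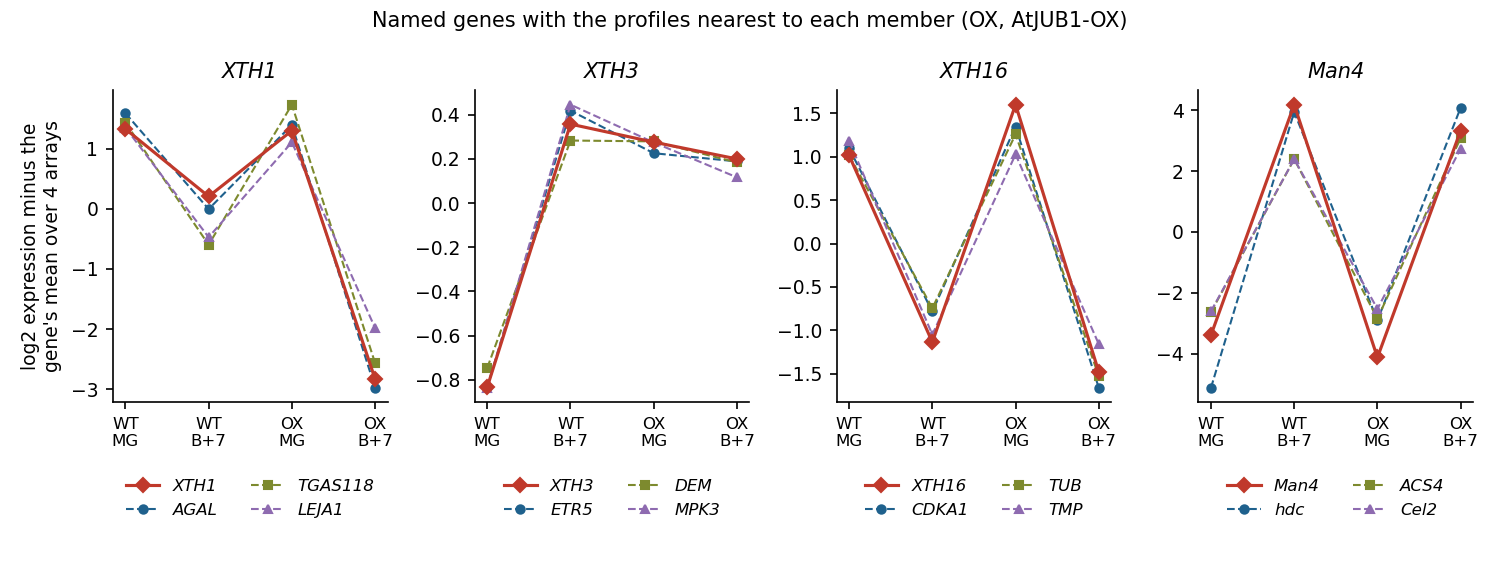
Log2 expression minus the gene's mean over the 4 arrays (y axis, with its own scale in each panel) on each array (x axis, OX for AtJUB1-OX) for XTH1, XTH3, XTH16 and Man4 (red) and the 3 named genes with the nearest profiles. AGAL follows XTH1 at a distance of 0.38 and ETR5 follows XTH3 at 0.080, while hdc is 2.26 away from Man4. Distances grow with the range of a gene and are not compared between panels.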

How the data were processed

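Pericarp RNA was hybridized to GeneChip Tomato Genome Arrays. The values are log2 expression, as deposited by the authors, and their processing notes name GCRMA and RMA without versions, roles or order. Of 10209 probe sets, 108 controls were left out. The platform annotation of 2007 gives 1 gene for 909 of the rest, of which 885 have an entry in the RefSeq table (assembly SLM_r2.1), taken for names and gene order only. The brightest probe set stands for a gene. Comparisons are differences of log2 values, read with a 1.5-fold cut-off. With 1 array per group nothing was tested, and the precision is limited by the number of arrays. The genes, lists and rules were chosen with earlier results of these data known. Named are the 5 genes, up to 3 genes per wall class with the largest difference, and the 3 nearest profiles for each gene whose values span 1.5-fold, which tXET-B2 does not reach. Other genes were named after their values were seen. No cellulose synthase gene was matched. Alternatives were centring on array medians, quantile normalization in limma 3.58.1 (R 4.3.3), a loess correction of signal-dependent shifts (span 0.3), a floor at log2 7.34 (25th percentile), a 2-fold cut-off, the mean of a gene's probe sets, and genes above the median signal (9.70) alone. The counting and the loess step were tested on simulated data. Python 3.11.15, numpy 2.4.6, pandas 2.3.3 and matplotlib 3.10.9 were used. No sequences are given, since none were in the tables used here.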

Additional observations from a re-analysis of the deposited data

Results flagged for a closer look

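For XTH3 the genotype difference was 1.11 at MG and -0.16 at B+7, and the difference between stages 1.19 in WT and -0.08 in AtJUB1-OX. The change was -1.27 in either reading. Only the positive values passed the 1.5-fold cut-off, so the signs differ but no opposite change of that size was seen. The signs also differed for tXET-B2, with 0.57 and -0.06 between genotypes, 0.35 and -0.29 between stages, and a change of -0.64. None of its differences between genotypes or stages passed the cut-off. For XTH16 only the genotype difference changed sign, from 0.59 at MG to -0.34 at B+7, a change of -0.93. The B+7 value did not pass the cut-off. Each value rests on 1 array per group, and the differences were not tested. Both readings of XTH3 and of tXET-B2 use the same 4 values.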

How the results depend on the processing

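Of the 100 differences of the 5 genes under the alternatives, 0 changed the sign of a difference past the cut-off. By less than the SD between probe sets of a gene, 97 moved or stayed unchanged. Many of these could not move. Averaging probe sets can change XTH16 alone, and the floor lies below every value of the 5 genes except those of Man4 at MG. The other 3 are those of Man4 with the floor, where its MG values rise to the floor, which gave 0 between genotypes at MG and 4.57 in WT and 3.71 in AtJUB1-OX between stages. XTH16 at MG lies on the cut-off and dropped under it with its probe sets averaged (0.58), with loess (0.58) and with quantile normalization (0.57), which left 1 gene higher at MG, and tXET-B2 passed it with centring (0.61). Of the 5 genes, the 2-fold cut-off left 1 higher and 0 lower at MG and 1 lower at B+7. The floor left 0 lower at MG. For either setting no share of all probe sets was taken, so these counts have none beside them. Without Man4, which has a mean signal below the median, the lower genes numbered 0 at MG and 1 at B+7, and the genes higher at B+7 than at MG numbered 1 in WT and 0 in AtJUB1-OX.

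Of the other cell wall genes, the floor left 3 higher and 3 lower at MG, 5 lower at B+7 and 8 lower between stages in AtJUB1-OX. The 2-fold cut-off left 3 higher and 2 lower at MG, 8 lower at B+7 and 3 lower between stages in WT. Shares of all probe sets were not taken at 2-fold or with the floor. These counts are therefore not set against the 1.5-fold shares. Above the median signal there are 14 such genes, with 3 higher and 2 lower at MG, 0 higher and 4 lower at B+7, 5 higher and 4 lower between stages in WT, and 4 higher and 6 lower in AtJUB1-OX. Fewer genes are counted there. Of all probe sets above the median signal, 4.95% were higher and 3.49% lower at MG, and 1.19% and 3.62% at B+7. Between stages the shares were 11.4% and 9.64% in WT, and 13.0% and 12.9% in AtJUB1-OX. All 4 arrays are the only ones of their group, so leaving out an array was not possible.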

Other observations

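The endo-1,4-glucanase genes, whose enzymes cut glucan chains in the wall, differed in their signals between stages. Cel2 had a signal of 6.81 in WT and 6.89 in AtJUB1-OX at MG and of 11.82 and 12.16 at B+7, so that the B+7 arrays stood above the MG arrays by 5.01 and 5.27. Cel1 was also higher at B+7, by 3.45 in WT and 3.62 in AtJUB1-OX, and was higher in AtJUB1-OX than in WT at both stages (0.95 at MG and 1.13 at B+7). cel7 gave 7.10 in WT and 6.87 in AtJUB1-OX at MG and 5.40 and 4.26 at B+7, where both values lay below the background percentile of 5.43, so that no fold is given. The brightest of the 6 genes, Cel3, named after its values were seen, stayed within 1.5-fold in every comparison. All but Cel3 have a mean signal below the median of all probe sets.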
